A study of Mus musculus with 2 samples.

Results

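The cells described here are induced intraepithelial lymphocytes (iIELs) recovered from crypts of the mouse colon. They were chosen by name. The study's cell assignments label 186 barcodes of a Drop-seq count matrix as iIELs, and 11 of these are also listed among the epithelial subclusters. With those left out, 175 cells remained, out of 516 assigned cells and 1117 barcodes in all, or 33.9% of the assigned cells (95% exact binomial interval 29.8% to 38.2%). The cells came from C57BL/6 mice 4 to 10 months old that had received no treatment and carried the Cre driver Tcf4 GfpCre/+ and the reporter RosamTmG/+. The driver is a knock-in that disrupts 1 Tcf4 allele, so every mouse was heterozygous for Tcf4. The reporter stays red (membrane Tomato) until Cre from the Tcf4 promoter turns it green. Crypts were pushed out of the inverted colon by air pressure, and the sorted cells were red, from outside the Tcf4 lineage (Tcf4 Lin-), or carried both colours (labelled Tcf4 DP, called MIX by the study). No group of mice without these alleles was sequenced. The 2 libraries were pools of samples 1 to 3 and 4 to 6. The barcodes carry a suffix, X1 or X2, that no label ties to a pool, and among the assigned cells no barcode sequence occurs in both sets. All cells therefore counted as 1 sample with no replicate. No test was made, and the intervals cover counting error only. Values within set X1 (162 iIELs) and set X2 (13 iIELs) are given where they bear on a result.

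Intraepithelial lymphocytes lie between the epithelial cells of the gut. Natural IELs acquire their program in the thymus, often carry the γδ T cell receptor or the CD8αα homodimer, and express many natural killer (NK) cell receptors. Induced IELs descend from conventional αβ T cells that met antigen in the periphery. They are known for the CD8αβ coreceptor, whose β chain is encoded by Cd8b1, and for granules loaded with granzymes, the serine proteases that kill target cells once perforin has let them in.

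Granzymes carried several of the largest differences between the iIELs and the natural IELs (nIELs), so the sequences before the start sites of 3 of them are shown. Runx3, a factor of CD8 T cells that binds a TGTGGT core, had 61 UMIs (unique molecular identifiers, each counting 1 captured transcript) in the iIELs and 63 in the nIELs. Each sequence below holds the 250 bases before the RefSeq start, taken from the RefSeq promoter table of GRCm38.p6 and written 5′ to 3′ on the strand of the gene. Capitals mark the 6 bases TGTGGT or their reverse complement ACCACA. On this build the window of Gzma lies at chr13:113100982-113101231, that of Gzmb at chr14:56262335-56262584 and that of Gzmk at chr13:113180966-113181215, all on the minus strand.
Gzma: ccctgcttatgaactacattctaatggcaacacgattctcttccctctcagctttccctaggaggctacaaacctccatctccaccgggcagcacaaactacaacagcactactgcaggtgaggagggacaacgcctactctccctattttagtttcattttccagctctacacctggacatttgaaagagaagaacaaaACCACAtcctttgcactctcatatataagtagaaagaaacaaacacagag
Gzmb: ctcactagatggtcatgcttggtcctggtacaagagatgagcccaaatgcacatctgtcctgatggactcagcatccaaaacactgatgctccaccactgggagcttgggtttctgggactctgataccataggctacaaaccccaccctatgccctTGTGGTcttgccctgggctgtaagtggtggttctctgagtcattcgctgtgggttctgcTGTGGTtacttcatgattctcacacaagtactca
Gzmk: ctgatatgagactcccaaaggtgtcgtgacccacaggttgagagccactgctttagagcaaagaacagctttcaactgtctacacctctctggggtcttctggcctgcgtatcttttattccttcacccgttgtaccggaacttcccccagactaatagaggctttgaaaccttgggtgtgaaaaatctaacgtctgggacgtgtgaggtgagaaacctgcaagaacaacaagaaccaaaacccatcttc
The Gzma window held 1 core, 50 bases before the RefSeq start. The Gzmb window held 2, with first bases 93 and 34 before the RefSeq start, and the Gzmk window held none. Bases listed after the start matched a GENCODE transcript of the gene for Gzma, but not for Gzmb or Gzmk. GENCODE starts Gzmb at 56262260 and Gzmk at 113225908, so the Gzmk window lies inside the GENCODE gene. The Gzmb and Gzmk windows therefore hold for the RefSeq starts alone. Over all 32851 windows of this length in the table, 14.0% held at least 1 core, and a match describes the letters alone.

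The iIELs held 185158 UMIs, from 504 to 3752 per cell with a median of 950. The 187 nIELs that are not in the epithelial list were deeper, with a median of 1148, as were the 47 B cells (1503) and the 106 epithelial subcluster cells (1606.5). Mitochondrial genes took 2.98% of iIEL UMIs and 2.13% of nIEL UMIs. Tcf7l2, the symbol under which the matrix lists Tcf4, had 0 UMIs in the iIELs and 26 in the epithelial cells.

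The 7 marker genes of the label were highest in the iIELs, and the epithelial cells held no UMI of any of them. They are 7 of the genes that named the clusters, so their values describe the label and test nothing. The study also shows Gzma as an iIEL marker. Since the labels rest on a clustering of these same genes, every gene difference between the sets below is a description. All 7 stood at least 2-fold above the nIELs. Over the 3321 genes with at least 20 UMIs in both sets together (called measured from here on), 206 did so (6.2%) and 190 were at least 2-fold lower (5.72%), and the median of all of them was -0.004 on the log2 scale. The counts given below for lists of genes stand against these shares. A level here is the sum of a gene's UMIs in a set of cells, scaled to a set total of 1000000 UMIs (CPM). Cd8b1, on chromosome 6 of GRCm38 from 71322788 to 71337494, was at 848 CPM (720 to 991) in the iIELs and at 33.3 CPM in the nIELs, 25.4-fold higher (12.6 to 60.0). In set X1 the Cd8b1 levels were 827 and 31.8 CPM, and in set X2 1179 and 49.8 CPM. Its neighbour Cd8a, which encodes the α chain that both CD8 forms share, starts 35.9 kb beyond the end of Cd8b1, at 71373427. It was at 1032 CPM (890 to 1189) against 442 CPM, 2.34-fold higher (1.83 to 2.99), and 5.20-fold higher in set X2 alone. Both genes were thus higher in the iIELs within each barcode set, and the gap was wider for the β chain.

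The other markers were effector genes or surface receptors. Gzmb, on chromosome 14 from 56258838 to 56262260, was at 2155 CPM (1949 to 2377) against 367 CPM in the nIELs, a ratio of 5.88 (4.66 to 7.49). Gzmk, a granzyme of memory-like CD8 T cells, had 52 UMIs in the iIELs and 2 in the nIELs, a ratio of 33.7 (8.87 to 286). Ccl4, an inflammatory chemokine, had 68 UMIs and 7 UMIs, 12.6-fold higher (5.79 to 32.5). A single iIEL held 19 of the 68 Ccl4 UMIs. Cd6, a T cell scavenger receptor that tunes receptor signalling, had 21 UMIs and 3 UMIs, and Lilr4b, a receptor of the leukocyte immunoglobulin-like family, had 29 and 5. These 2 genes stood 9.07-fold (2.71 to 47.5) and 7.52-fold (2.88 to 24.9) above the nIELs.

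The markers were spread over most iIELs, but few cells held many of them. At least 1 of the 7 had a UMI in 92.0% of iIELs (86.9% to 95.6%), against 44.4% of nIELs (37.1% to 51.8%). Exactly 1 marker was seen in 21.1% of iIELs, 2 in 34.9%, 3 in 16%, 4 in 14.3% and 5 or more in 5.71%. No nIEL held 4 or more. Cd8b1 had a UMI in 48.6% of iIELs, 3.74% of nIELs and 21.3% of B cells. Each of the 7 was at 0 of 106 epithelial cells, which allows a share of cells with a UMI of up to 2.83% by a floor of 3 cells (3.42% by the exact interval). The study describes a filter against T cell markers for epithelial cells in its trajectories, so these zeros may follow from selection. With every cell thinned to 500 UMIs, the Cd8b1 shares were 33.4% of iIELs, 1.26% of nIELs and 13.1% of B cells. The B cells held 25 of the 33 Cd8b1 UMIs found outside the iIELs, and 23.4% of them had a UMI of a CD3 gene. The part of mixed or doubled barcodes in those values was not tested.

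**Figure D1:**
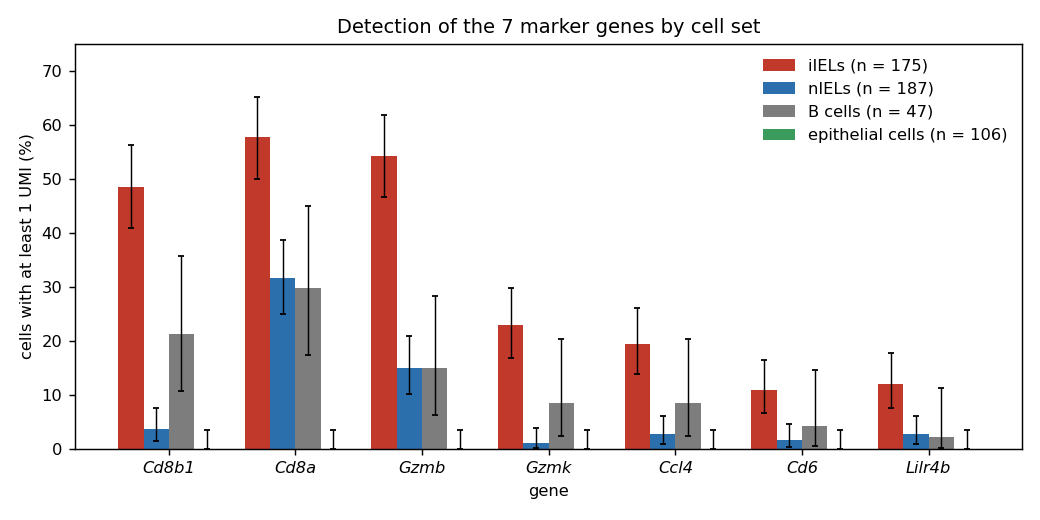
Percent of cells with at least 1 UMI (vertical axis) for each of the 7 markers (horizontal axis) in 4 cell sets, with exact 95% binomial intervals for counting error. The iIEL bars are the tallest for every marker, from 10.9% for Cd6 to 57.7% for Cd8a, and the epithelial bars are at 0 throughout.

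The receptor genes of T cells were at similar levels in both IEL sets, while the γ and δ chains were lower in the iIELs. At least 1 of the 4 CD3 genes, which encode the signalling chains of the receptor, had a UMI in 92.0% of iIELs and 90.9% of nIELs. Cd3e was at 1080 CPM against 1033 CPM, a ratio of 1.05 (0.863 to 1.26), and Trac, the α constant chain, was at 869 CPM against 846 CPM, a ratio of 1.03 (0.831 to 1.27). Of the 11 receptor genes, 3 were at least 2-fold lower and none was 2-fold higher, with a median of -0.27 on the log2 scale. The 3 were Trdc, the δ constant chain, with 26 UMIs against 86 and 2.55-fold lower (1.63 to 4.12), Tcrg-C1, 2.37-fold lower (1.64 to 3.50), and Tcrg-C4. The γ constant genes resemble each other closely, as do Trbc1 and Trbc2, so reads may have been shared among them. Trdc was still present, in 11 iIELs or 6.29% (3.18% to 11%), against 18.2% of nIELs. A UMI of Trdc or any γ constant gene was found in 49.7% of iIELs and 79.7% of nIELs. Of these cells, 12 iIELs and 14 nIELs had no UMI of Trac, Trbc1 or Trbc2. Cd4, the coreceptor of helper T cells, had a UMI in 2 of 175 iIELs.

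Among coreceptors and the proteins just below the receptor, 6 of 16 measured genes were at least 2-fold higher than in the nIELs and 1 was 2-fold lower. Over all measured genes the shares were 6.2% and 5.72%, and Cd8a, Cd8b1 and Cd6 among the 6 are label markers. Beside Cd8a, Cd8b1 and Cd6 the higher genes included Cd5, an inhibitory relative of Cd6, with 24 UMIs against 7 (4.44-fold, 1.86 to 12.2), and Lat, the adapter that gathers signalling proteins at the receptor, at 448 against 192 CPM (2.34-fold, 1.61 to 3.43). Cd5 had no UMI in the 13 iIELs of set X2. The kinases Lck and Zap70 were near even, at ratios of 1.05 (0.794 to 1.39) and 0.97 (0.548 to 1.70). Txk, a kinase of the Tec family, had 10 UMIs against 30 and was the gene 2-fold lower.

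The cytotoxic granule genes set the iIELs apart mainly through granzymes and Fasl. Of 12 measured genes, 5 were at least 2-fold higher than in the nIELs and 1 was 2-fold lower, with a median of 0.34. Over all measured genes the shares were 6.2% and 5.72%, and Gzma, Gzmb and Gzmk among the 5 are iIEL markers. Gzma, on chromosome 13 from 113093825 to 113100981, had 837 UMIs in the iIELs and 294 in the nIELs, at 4520 against 1225 CPM and 3.69-fold higher (3.23 to 4.23). Its levels were 4405 against 1228 CPM in set X1 and 6350 against 1196 CPM in set X2. For Gzmb they were 2033 against 350 CPM and 4082 against 548 CPM. Both barcode sets thus gave the same order for both genes. Prf1, which encodes perforin, was sparse, with 16 UMIs against 8 (2.59-fold, 1.05 to 7.0). Fasl, the ligand of the death receptor Fas, had 20 UMIs against 6 (4.32-fold, 1.67 to 13.1). Neither gene had a UMI in the 13 iIELs of set X2. The general granule genes differed less. Nkg7 was at a ratio of 1.31 (1.10 to 1.55), and Srgn, whose product packs granzymes in the granule, at 1.19 (1.01 to 1.40). Gzmc, the gene 2-fold lower, had 5 UMIs against 17, and all 5 lay in 1 iIEL.

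Granzymes were uneven among the iIELs. Gzma had no UMI in 80 cells and 3 or more in 72, and the highest cell held 46. Gzmb likewise had no UMI in 80 cells and at least 3 in 42, with a maximum of 32. At least 1 of Gzma, Gzmb and Gzmk was found in 72.0% of iIELs (64.7% to 78.5%) and 18.2% of nIELs (12.9% to 24.5%). Gzma and Gzmb were often detected together, with both in 74 iIELs, Gzma alone in 21 and Gzmb alone in 21. Gzmb had a UMI in 77.9% (68.2% to 85.8%) of the 95 iIELs with Gzma and in 26.2% (17.0% to 37.3%) of the 80 without it. The median depths of those cells were 954 and 928 UMIs. The nIELs with Gzma, 23 in number, had Gzmb in 73.9% (51.6% to 89.8%). Gzmk followed neither gene as closely. Gzmb was found in 62.5% (45.8% to 77.3%) of the 40 iIELs with Gzmk and 51.9% (43.1% to 60.5%) of those without, and Gzma in 57.5% and 53.3%.

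**Figure D2:**
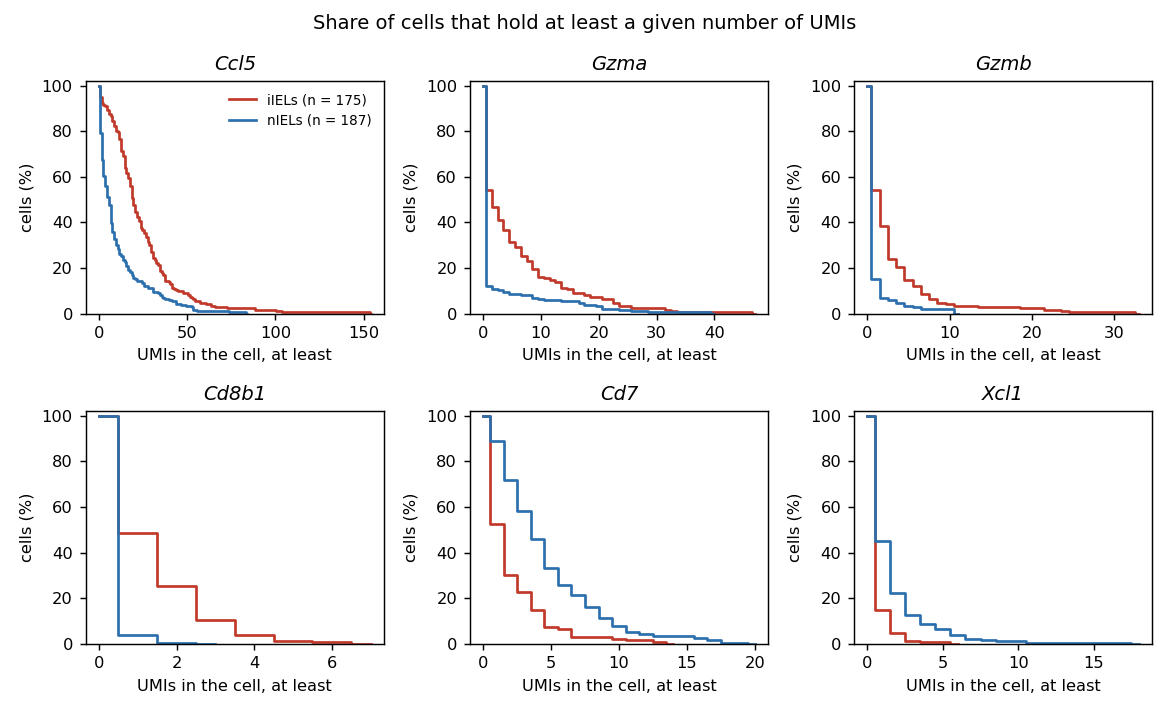
Percent of cells (vertical axis) that hold at least the number of UMIs on the horizontal axis, for 6 genes in iIELs and nIELs. The iIEL lines run above the nIEL lines over most of the range for Ccl5, Gzma, Gzmb and Cd8b1 and below them for Cd7 and Xcl1, and 95 of 175 iIELs have a Gzma UMI against 23 of 187 nIELs.

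Chemokines differed in both directions. Ccl5, a chemokine that effector T cells store ready for release, was found in 94.9% of iIELs and 79.1% of nIELs, with a median of 19 UMIs per iIEL and 5 per nIEL. Its level was 22235 CPM against 7841 CPM, 2.84-fold higher (2.68 to 3.00), at 21529 against 7702 CPM in set X1 and 33382 against 9366 CPM in set X2. Ccl3, a chemokine closely related to Ccl4, had 19 UMIs against 3, a ratio of 8.21 (2.42 to 43.3). Xcl1, which attracts cross-presenting dendritic cells, went the other way. It had 38 UMIs in the iIELs and 203 in the nIELs, 4.12-fold lower (2.90 to 5.99), and was lower in both barcode sets. With Ccl3, Ccl4 and Ccl5 higher and Xcl1 lower, 4 of the 6 measured genes of this list differed 2-fold or more, and its median was 1.05. Ccl4 is a label marker, and over all measured genes 6.2% were 2-fold higher and 5.72% 2-fold lower. Of the cytokines of effector T cells, Ifng had 9 UMIs against 3 and Tnf 5 against 2, too few for the minimum of 20.

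NK receptors and their adapters had the lowest median of the 15 function lists. Of 13 measured genes, 8 were at least 2-fold lower than in the nIELs and none was 2-fold higher, and the median was -1.24 on the log2 scale. Over all measured genes the shares were 5.72% lower and 6.2% higher. Tyrobp, the adapter that carries activating signals of many NK receptors, had 32 UMIs against 181 and was 4.36-fold lower (2.98 to 6.57). Fcer1g, a similar adapter, was at 270 CPM against 867 CPM, 3.21-fold lower (2.35 to 4.46), with 264 against 850 CPM in set X1 and 363 against 1046 CPM in set X2. Klrd1, the CD94 chain that pairs with NKG2 receptors, was 2.36-fold lower (1.88 to 2.98), and Cd7, an early T and NK cell surface protein, was 2.24-fold lower (1.94 to 2.59). Klrb1a, an NK receptor of the NKR-P1 family, had no UMI in the iIELs and 28 in the nIELs, at least 7.20-fold lower against a floor of 3 UMIs over the set (5.48-fold by the exact interval). Hcst, the adapter of the activating receptor NKG2D, was at a ratio of 1.26 (1.01 to 1.58), and Klrc1, an NKG2 chain that pairs with CD94, had 16 UMIs against 11 (1.89, 0.822 to 4.49). The receptor Klrk1 (NKG2D) itself had 11 UMIs against 41. Fcer1g, Klrd1, Cd7 and Tyrobp, 4 of the 8 lower genes, are the label markers of the nIELs, so the count and the median draw on the label. At least 1 of these 4 had a UMI in 68.6% of iIELs and 96.8% of nIELs. Klra genes are near copies of each other and their single values are uncertain. Klra7 had 14 UMIs against 67.

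Transcription factors included a contrasting pair. Id2, an inhibitor of E proteins that effector CD8 T cells need, was at 875 CPM against 321 CPM and 2.73-fold higher (2.07 to 3.63), in set X1 at 890 against 323 CPM and in set X2 at 635 against 299 CPM. Its relative Id3 had 4 UMIs against 41, 7.91-fold lower (2.86 to 30.4). Ikzf2, which encodes Helios, a factor of natural IELs and regulatory T cells, had 19 UMIs in the iIELs and 122 in the nIELs, 4.95-fold lower (3.04 to 8.51). Lef1, a factor of naive T cells, had 7 UMIs against 24, and its partner Tcf7 19 against 43, at a ratio of 0.57 (0.315 to 1.00). These were 1 gene at least 2-fold higher and 3 at least 2-fold lower of 12 measured, with a median of 0.04. The shares over all measured genes were 6.2% and 5.72%. Runx3, which silences Cd4 in CD8 T cells, was at a ratio of 1.26 (0.868 to 1.81), Ets1 at 0.95 (0.680 to 1.33) and Tbx21, the T-bet gene, at 1.11 (0.469 to 2.59).

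Of 15 measured homing genes, 3 were at least 2-fold higher, none was 2-fold lower and 12 lay between, with a median of 0.53. For this list and the next 2, the shares over all measured genes were 6.2% higher and 5.72% lower. Cxcr6, a chemokine receptor of resident memory T cells, had 52 UMIs against 12 and was 5.62-fold higher (2.96 to 11.6). Itgb7, the β7 chain of the integrins that bring lymphocytes to the gut and hold them there, was at 443 CPM against 221 CPM, 2.01-fold higher (1.40 to 2.89). Its partner chain Itgae (CD103), which binds epithelial E-cadherin, was at a ratio of 1.15 (0.754 to 1.74). Of the cytokine receptors, Il7r alone passed 2-fold among 6 measured, with 32 UMIs against 18 (2.30-fold, 1.26 to 4.36). In set X2 its ratio was 0.61. Il2rb, the receptor chain shared by interleukins 2 and 15, was at 0.83 (0.434 to 1.56). The list of inhibitory receptors and their relatives had 4 measured genes. Lilr4b, a label marker, was 2-fold higher, and Cd160 was at 497 against 875 CPM, a ratio of 0.57 (0.440 to 0.729). Pdcd1, Lag3, Havcr2 and Tigit each had at most 2 UMIs in the iIELs.

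Of 15 measured calcium-binding, actin and galectin genes, 3 were at least 2-fold higher and none was 2-fold lower, with a median of 0.72. For the lists of this paragraph, the shares over all measured genes were 6.2% higher and 5.72% lower. Lgals1, which encodes the secreted galectin-1, had 103 UMIs against 24 and was 5.56-fold higher (3.54 to 9.07). S100a4, a calcium-binding protein of motile and memory cells, had 23 UMIs in 12 iIELs against 2 in the nIELs (14.9-fold, 3.68 to 130), and S100a6 57 against 22 (3.36-fold, 2.02 to 5.77). S100a6 had 924 UMIs in the epithelial cells. Interferon-stimulated genes had a median of 1.01, with 5 of 9 measured genes at least 2-fold higher. Isg15, a ubiquitin-like protein, was at a ratio of 2.27 (1.19 to 4.49) and the growth regulator Slfn1 at 7.78 (2.27 to 41.2). Isg20, with 14 UMIs against 9, was at 2.02 (0.813 to 5.28). Ly6a (Sca-1) had 41 UMIs against 4, a ratio of 13.3 (4.81 to 51.1). Within set X1 the Ly6a ratio was 46.7, and within set X2 it was 2.43. Other members of this list, such as Irf1 at 1.30 (0.740 to 2.27), lay closer to even. The lists of GIMAP GTPases (8 measured), class I and immunoproteasome genes (16 measured) and immediate early genes (8 measured) held no gene 2-fold apart, with medians of -0.17, 0.20 and -0.14.

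**Figure D3:**
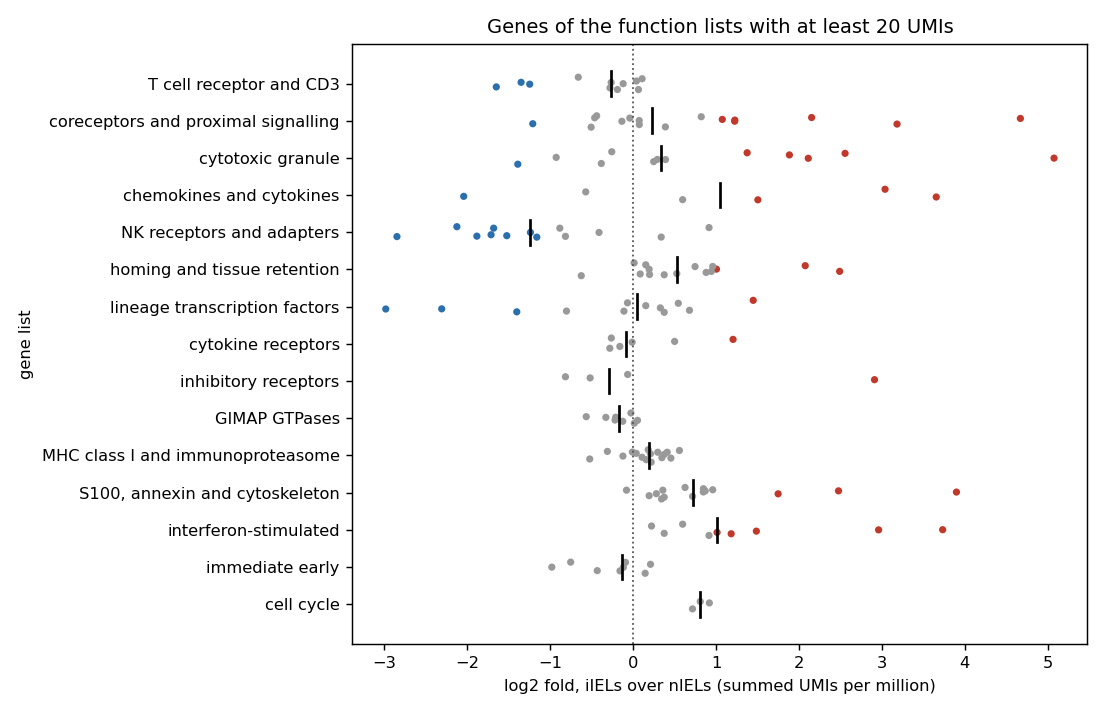
Log2 fold of iIELs over nIELs (horizontal axis) for each gene of 15 function lists (vertical axis) that had at least 20 UMIs. Each point is a gene, red at 1 or above and blue at -1 or below, short black lines are list medians and the dotted line is the median of all 3321 genes. The NK receptor list has the lowest median, at -1.24, and the list of chemokines and cytokines the highest, at 1.05.

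With 20 UMIs or more in the iIELs and the same direction in both barcode sets required, the 15 largest folds over the nIELs included those of Gzmk, Cd8b1, S100a4, Ly6a, Ccl4, Cd6, Lilr4b, Gadd45b, Gzmb, Cxcr6 and Lgals1, followed by Mns1, Rab8b and Bms1. Gadd45b, a stress-induced regulator of signalling kinases, had 25 UMIs against 5 (6.48-fold, 2.44 to 21.7). Mns1 had 37 UMIs against 11, Rab8b, a small GTPase of vesicle traffic, 55 against 19, and Bms1, a ribosome assembly factor, 23 against 8. At the other end stood Klra5 with 1 UMI against 33 and Tnfsf8, the CD30 ligand, with 2 against 26. Kit, the stem cell factor receptor, had 0 against 22 and was at least 5.66-fold lower by the same floor (4.23-fold by the exact interval), and Appl2, an endosomal adapter, had 0 against 20 and was at least 5.14-fold lower (3.81-fold by the exact interval). Ighm, the immunoglobulin μ chain, had 7 UMIs against 63 in the nIELs, where 10.2% of cells held at least 2 UMIs of the B cell list against 4.00% of iIELs. The part of B cell RNA in that difference was not tested. Klra6, Ash1l, Swap70, Bdp1 and Alg5, with 3 to 7 UMIs in the iIELs and 20 to 56 in the nIELs, completed the 12 lowest together with Id3 and Klrb1a.

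**Figure D4:**
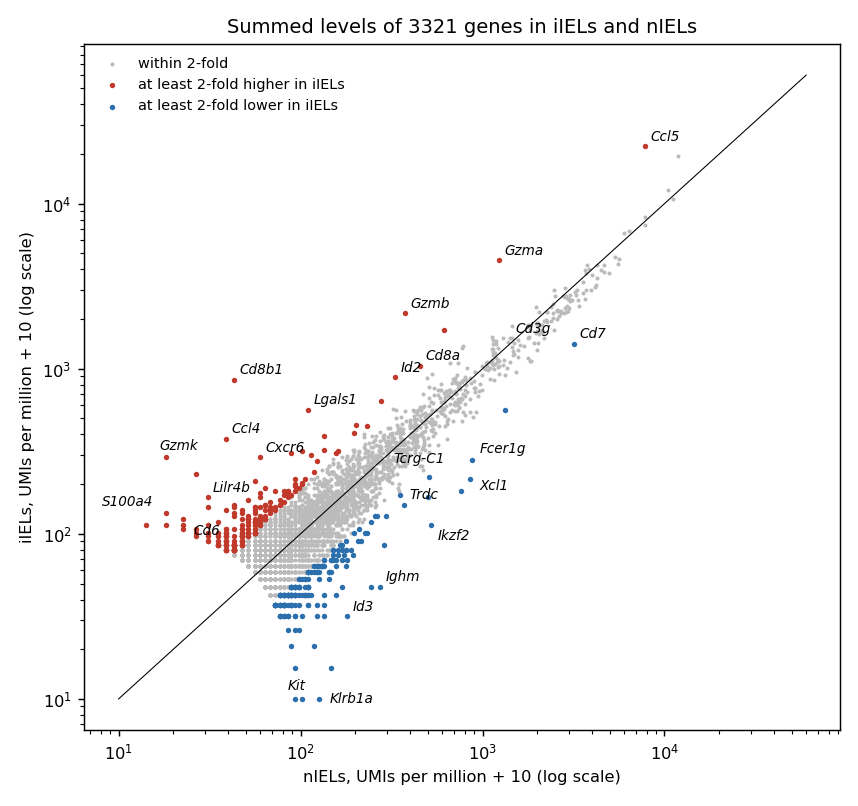
Summed level in the iIELs (vertical axis) against the nIELs (horizontal axis) for 3321 genes, both in CPM plus 10 on log scales, with a line where both are equal. Red points are at least 2-fold higher in the iIELs and blue points at least 2-fold lower. Cd8b1, Gzmk, Ccl4 and Gzmb lie far above the line, Id3, Ikzf2, Klrb1a and Kit below it, and Cd3g close to it.

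Against all 341 other assigned cells, which include the nIELs, 624 of 6173 genes with at least 20 UMIs were 2-fold higher in the iIELs (10.1%) and 1326 were 2-fold lower (21.5%), with a median of -0.06. Epithelial subcluster cells held 349490 of the 666746 UMIs of those cells. Among them were the 11 iIEL-labelled cells that had been left out, with 98969 UMIs. The 7 markers were all among the higher genes. Their folds ran from 5.21 (4.15 to 6.56) for Cd8a to 26.8 (12.1 to 69.8) for Gzmk, with Cd8b1 at 17.1 (11.7 to 25.8). Gzma was 7.97-fold higher (7.05 to 9.03). Among the 12 genes with the largest folds, those not yet named for this comparison were Ccl4, Lilr4b, Cd6, Cxcr6 at 11-fold, Gzmb at 10.3-fold, Lgals1 at 8.63-fold, Gadd45b, Ahi1 and Rab8b. Ahi1 had 31 UMIs in the iIELs and 15 in the nIELs, B cells and epithelial cells together. Genes shared with the nIELs stood lower in this order. Of the receptor and CD3 genes 7 of 11 were at least 2-fold higher, and Ly6a was at a ratio of 1.54, since B cells held 44 and epithelial cells 48 of its UMIs.

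UMIs of other cell types were few in the iIELs. The epithelial list of 12 genes summed to 292 CPM (219 to 381) against 146 CPM in the nIELs and 32839 CPM in the epithelial cells, with Krt18, Krt20 and Vil1 at 0. The B cell list summed to 194 CPM (136 to 269) against 362 CPM in the nIELs and 27805 CPM in the B cells, with Cd79a, Cd79b and Ms4a1 among the 4 genes at 0. Lyz2, a myeloid gene, had 19 UMIs, of which 18 lay in 1 cell. The 11 iIEL-labelled cells that were left out were of another kind. They held none of the 7 markers, Pigr in 11 of 11 and Epcam in 10 of 11. Their 98969 UMIs were 34.8% of all UMIs under the label, and 4 of them held between 19945 and 23205 UMIs each. For its trajectories the study filtered for Pigr and against T cell markers. Where the epithelial list rests on that filter, the Pigr and marker values of these 11 cells follow from it.

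The iIELs were not uniform in Cd8b1. A split by the presence of a Cd8b1 UMI gave 85 cells with it and 90 without, at median depths of 964 and 931.5 UMIs. Several genes of γδ and natural IELs had nearly all their UMIs on the side without it, and others were even. Trdc had 0 UMIs in the cells with Cd8b1, which allows a share of cells with a UMI of up to 3.53% by a floor of 3 cells (4.25% by the exact interval), and 26 UMIs in the others. Fcer1g had 1 UMI against 49, Tyrobp 2 against 30, and Tcrg-C1 3 against 36. Klrd1 was at 234 CPM against 859 CPM, a ratio of 0.27 (0.160 to 0.445), and Klre1, a receptor of the same gene cluster, had 3 UMIs against 26. Cd7 was at a ratio of 0.57 (0.437 to 0.740) and Cd160 at 0.68 (0.438 to 1.06). Of the other γ constant genes, Tcrg-C2 had 45 UMIs against 54 and Tcrg-C4 16 against 13, and the NK receptors Cd244 (14 and 14) and Klrc1 (8 and 8) had equal counts. Genes of T cell receptors and signalling went both ways. In the cells with Cd8b1, Cd8a was 1.88-fold higher (1.39 to 2.57), Cd3d 1.44-fold (1.07 to 1.94), Lat 2.78-fold (1.69 to 4.71), and Cd5 had 20 UMIs against 4. Cd3g was at a ratio of 0.68 (0.526 to 0.863), Cd3e had 89 UMIs against 111, and the receptor-associated adapter Trat1 had 8 UMIs against 25. Thy1, a glycoprotein of T cells, was 1.77-fold higher (1.16 to 2.72), Gzmk 2.40-fold (1.30 to 4.63) and Lgals1 2.07-fold (1.36 to 3.21). Since a cell without a Cd8b1 UMI may still express the gene at this depth, the split sets apart detection, not cell types.

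The granzymes differed among themselves in that split, since Gzmk was higher in the cells with Cd8b1 and Gzma and Gzmb were not. Gzmb had a UMI in 49.4% (38.4% to 60.5%) of the iIELs with Cd8b1 and 58.9% (48.0% to 69.2%) of those without it, and Gzma in 50.6% (39.5% to 61.6%) and 57.8% (46.9% to 68.1%). By level Gzma was lower in the cells with Cd8b1, at a ratio of 0.68 (0.587 to 0.779). The 90 iIELs without Cd8b1 stood above the nIELs in Gzma by 4.38-fold (3.78 to 5.07), in Gzmb by 6.43-fold (5.00 to 8.32), in Ccl5 by 2.68-fold (2.51 to 2.85) and in Cxcr6 by 5.03-fold (2.42 to 11). With no Cd8b1 UMI, these cells took the iIEL label through other genes. Gzmb is a label marker and Gzma an iIEL marker of the study, so these folds describe the label and test nothing. In the same 90 cells the Trdc and Tcrg-C1 levels were at ratios of 0.76 (0.470 to 1.19) and 0.75 (0.504 to 1.10) to the nIELs, and Xcl1 and Ikzf2 at 0.24 (0.139 to 0.377) and 0.31 (0.168 to 0.530). The other γ constant genes were lower than in the nIELs, Tcrg-C2 at a ratio of 0.67 (0.486 to 0.906) and Tcrg-C4 at 0.28 (0.143 to 0.492). Against the iIELs with Cd8b1, those without it held Xcl1 at an even count (19 UMIs each) and more Ikzf2 (15 UMIs against 4).

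**Figure D5:**
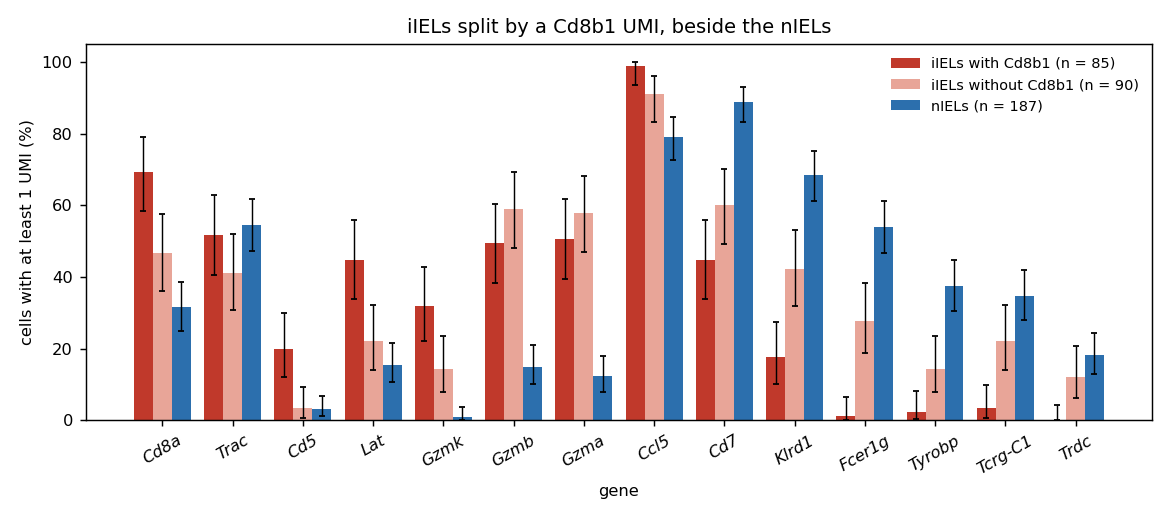
Percent of cells with at least 1 UMI (vertical axis) for 14 genes (horizontal axis) in iIELs with Cd8b1, iIELs without it and nIELs, with exact 95% binomial intervals. Trdc is at 0 in the cells with Cd8b1, 12.2% in those without and 18.2% in the nIELs, while Gzmb is at 49.4%, 58.9% and 15%.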

How the data were processed

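Drop-seq libraries were made from 2 pools of sorted crypt cells mixed with human cells. According to the submitters' processing notes, the authors used STAR (2.5.0) and Picard (1.137) with hg19 and mm10. The deposited file holds UMI counts, not normalized, for 19294 gene symbols in 1117 barcodes (1023641 UMIs). Cell labels came from the study's assignment sheets, which rest on its own clustering of all genes. Its columns of fold changes and p-values were not used. Members and lists were chosen with earlier results of these data known. Named genes were the 7 markers, members of the function lists, and by fold the first 15 and last 12 genes against the nIELs and the first 12 against the other cells (at least 20 UMIs in the higher set, the same direction in both barcode sets, no Gm-numbered models or pseudogenes). The wider split by Cd8b1 was chosen after its values had been seen.

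UMIs were summed per set and scaled to 1000000. Intervals at 95% are exact Poisson for levels, conditional binomial for folds and Clopper-Pearson for shares. Cells are not replicates. A fold against 0 used a floor of 3 UMIs over the set. Thinned shares are means of 100 draws of 500 UMIs per cell, which kept all cells. No doublet caller was run. Instead a setting left out IELs with at least 2 UMIs of the epithelial or B cell list. The fold script was tested on simulated counts. Alternatives covered the scaling, the UMI minimum, thinning, the barcode sets and the cells kept. Gene positions are from GENCODE M21 (GRCm38), which held 96.4% of the symbols. Gzmm, Il10, Il17a, Ccr7, Zfp683 and Foxp3, members of the lists, were not analysed here, and a few other members are not reported here. Python 3.11.15 with numpy 2.4.6, scipy 1.17.1, pandas 2.3.3 and matplotlib 3.10.9 was used.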

Additional observations from a re-analysis of the deposited data

Results flagged for a closer look

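Marker transcripts also lay in the 601 barcodes that no cluster holds and that no comparison used. They had a median of 212 UMIs, and 36.8% of their UMIs were mitochondrial. Cd8b1 had 25 UMIs there, in 20 barcodes (146 CPM, 94.2 to 215), and Gzmb had 61 UMIs in 38 barcodes (355 CPM, 272 to 456). Both counts exceed the 3 UMIs that a count of 0 allows. What these barcodes hold was not tested.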

How the results depend on the processing

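No paired analysis was possible because both pools lie in 1 matrix, their barcode sets are not tied to the pools, and no test was made. Several settings below also changed how many genes reached the UMI minimum. A smaller or larger count of called genes is therefore not by itself a smaller or larger share, and the shares are not given here. The counts of genes at least 2-fold higher and lower than in the nIELs (206 and 190) were 516 and 573 with a minimum of 10 UMIs, 34 and 34 with 50, 83 and 68 with cells thinned to 500 UMIs, 18 and 21 in barcode set X2 alone, and 553 and 292 with the cells in both sheets kept as IELs. Against the other assigned cells (624 and 1326) the count of higher genes was 1109 with a minimum of 10 UMIs, and the 2 counts were 239 and 533 with 50, 162 and 280 when thinned, 185 and 225 in set X2, and 267 and 432 with the cells in both sheets kept, where the Cd8b1 fold was 9.51. The other settings (mean of each cell's own CPM, totals without mitochondrial and ribosomal protein genes, set X1, related barcodes joined, IELs with UMIs of other types or the 10 deepest iIELs left out, twice-listed cells left out of the other cells) moved these counts by less than 1.5 times. Of all 669 alternative values, 586 stayed within the counting interval or margin of the main value, 83 left it, and none of these folds changed direction. The gene folds tried were those of the markers, of the genes named by fold and of genes in the Cd8b1 split. The genes named by fold had been picked for the same direction in both barcode sets, so those sets could not reverse them. Other list members were not tried singly, among them Il7r, which was lower in set X2. Values were left out where a set held too few UMIs to give a direction. Of the 206 higher genes, 176 had a UMI in set X2 and 77.8% of those had the same direction there, and of the 190 lower genes 78.9% of 161 did. Barcodes that differ at 1 base took 5 of the 175 iIELs into others. Depth limits the sparse markers most, since 1 UMI in the iIELs is worth 5.40 CPM.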

Other observations

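Cell cycle genes were sparse. Of 13 in the list, 3 had at least 20 UMIs and none of these was 2-fold apart from the nIELs. Among the genes below that minimum, Mki67, a mark of dividing cells, had 6 UMIs against 0 in the nIELs, Top2a, a topoisomerase of replicating cells, 12 against 3, Rrm2 5 against 0 and Ccnb2 8 (in 2 cells) against 1. At least 1 of Mki67 and Top2a had a UMI in 9 iIELs (5.14%, 2.38% to 9.54%) and 3 nIELs (1.60%, 0.332% to 4.62%), against 30.2% of the epithelial cells. The intervals of the IEL sets overlap. The replication genes Mcm3 and Mcm5 had 0 against 6 and 2 against 7 UMIs. Ccnd2, a cyclin of the G1 phase, was at 1329 CPM against 758 CPM, 1.75-fold higher (1.44 to 2.13), and was higher in both barcode sets.

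The few transcripts of helper and regulatory T cells in the iIELs were Icos, with 14 UMIs against 6, Ctla4, with 7 against 1, and Cd40lg, with 2 against 1. Among the 40 iIELs with Gzmk, neither Prf1 nor Tcf7 had a UMI, while the other 135 held 16 and 19. The upper bounds of those ratios were 0.886 and 0.732. Both genes were picked from all list members, among which the myeloid gene Lyz2 also had 0 UMIs against 19. The bounds cover counting error alone and not that choice. In the iIELs with a UMI of Trdc, Tcrg-C1, Fcer1g or Tyrobp (47 cells), Gzma was found in 70.2% (55.1% to 82.7%), against 14.8% (9.49% to 21.5%) of the 149 nIELs with such a UMI. These classes were chosen after the values had been seen. Gzma is an iIEL marker of the study, so its shares describe the label and test nothing.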
